A study of Mus musculus with 20 samples.

Results

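The collagen genes of the mouse were examined in the hippocampus and the cortex of bulbectomised mice. They were chosen by name, as every annotated gene whose symbol is Col followed by a type number, the letter a and a chain number, with 1 such gene left out. The rule took 43 of the 55487 genes counted and used no measured value. Sorted by the structure that their proteins form, 10 encode fibrillar collagens, 6 the type IV network of basement membranes, 6 the type VI beaded filaments, 3 hexagonal networks, 9 collagens that sit on fibrils, 2 multiplexins, 4 collagens that span the cell membrane and 3 other types.

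All mice were of the outbred NMRI stock and had undergone removal of the olfactory bulbs, a surgical model of sporadic Alzheimer's disease. From day 14 after the operation they received 1 of 2 recombinant proteins through the nose once a day for 21 days, either 4 µg of human HSP70, the stress-inducible chaperone, or 6.4 µg of YB-1, a cold shock protein that binds DNA and RNA. Each protein was represented by 5 hippocampal and 5 cortical libraries, which gives the groups Hippocampus HSP70, Hippocampus YB-1, Cortex HSP70 and Cortex YB-1 and 20 libraries in all. Poly(A) RNA of whole tissue pieces was sequenced from single ends. No unoperated, untreated or vehicle group was analysed here, and a difference between treatments has no such level to stand against. The labels give no age or sex and name no animal, so p-values measure the spread between these libraries, which may be partly technical.

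Collagens are triple helices of 3 chains, which may be copies of 1 chain or the products of different genes, and the chains are hydroxylated and folded in the endoplasmic reticulum before they are secreted. In the brain most collagen lies in the meninges, around vessels and in the basement membranes of vessels and the choroid plexus, where fibroblasts, endothelial cells and mural cells make it. Neurons and glia make little fibrillar collagen, but some neurons express the transmembrane collagens, whose extracellular part can be shed.

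The libraries held between 6414215 and 15148078 reads assigned to genes, and collagen genes took 0.0164% to 0.0329% of them. In the cortex the depths of the treatments did not overlap (12283392 to 15148078 reads with HSP70, 6414215 to 10763465 with YB-1), so a separate preparation or sequencing run cannot be told apart from the treatment there. As a check of the tissue labels, 6 of 7 tested markers of the hippocampus passed the test as higher there and 7 of 8 markers of the cortex as lower, while the remaining one, the deep-layer gene Fezf2, passed as higher, and the summed levels of both lists did not overlap between tissues. The hippocampal libraries differed widely in markers of the choroid plexus, the epithelium that secretes cerebrospinal fluid. Their 11 markers summed to 39.5 to 1741 CPM, read counts scaled to a common library size. In the cortex they summed to 11.1 to 166 CPM. The 3 libraries with the highest sums were Hippocampus HSP70 replicate 5 (1741 CPM), Hippocampus YB-1 replicate 2 (1097 CPM) and Hippocampus HSP70 replicate 4 (826 CPM). Results that rest on them are given with and without these 3.

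Promoter sequence is shown for 4 members, with its positions in GRCm38.p6 and from RefSeq. They are the pair Col4a1 and Col4a2, and Col23a1 and Col6a2. The latter had the smallest p of all members between treatments in the hippocampus, where neither passed. Each run is 250 bases long and ends just before the outermost start site listed for the gene. Capitals mark 3 short motifs on either strand. The first is CCAAT or ATTGG, the core of the Y-box to which YB-1 is known to bind. The others are the GC box, GGGCGG or CCGCCC, and the TATA box, TATAAA or TTTATA. No match overlaps another in the runs shown.
Col4a2, chr8:11312555-11312804, plus strand: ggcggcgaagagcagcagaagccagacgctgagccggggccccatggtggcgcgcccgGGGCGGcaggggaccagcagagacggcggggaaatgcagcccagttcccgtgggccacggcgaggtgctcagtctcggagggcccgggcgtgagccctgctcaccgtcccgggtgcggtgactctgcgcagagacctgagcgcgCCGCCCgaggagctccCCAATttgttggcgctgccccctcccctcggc
Col4a1, chr8:11312827-11313076, minus strand: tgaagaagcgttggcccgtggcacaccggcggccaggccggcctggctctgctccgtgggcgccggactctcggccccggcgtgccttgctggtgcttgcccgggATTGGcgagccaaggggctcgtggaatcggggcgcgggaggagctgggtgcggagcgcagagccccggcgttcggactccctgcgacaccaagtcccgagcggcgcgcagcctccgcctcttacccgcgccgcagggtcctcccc
Col6a2, chr10:76623631-76623880, minus strand: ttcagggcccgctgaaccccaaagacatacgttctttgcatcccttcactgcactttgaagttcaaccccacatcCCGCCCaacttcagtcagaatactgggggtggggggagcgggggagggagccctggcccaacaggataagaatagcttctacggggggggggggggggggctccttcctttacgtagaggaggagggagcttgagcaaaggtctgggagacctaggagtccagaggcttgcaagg
Col23a1, chr11:51289670-51289919, plus strand: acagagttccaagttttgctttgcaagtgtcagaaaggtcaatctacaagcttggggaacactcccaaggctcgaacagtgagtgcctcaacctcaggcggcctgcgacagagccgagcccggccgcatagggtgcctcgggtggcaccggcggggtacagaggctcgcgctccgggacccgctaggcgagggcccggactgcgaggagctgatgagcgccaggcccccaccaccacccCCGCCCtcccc
The genes for the main chains of type IV collagen, Col4a1 and Col4a2, are transcribed in opposite directions from starts that overlap, so the following 22 bases are common to the beginning of both, and the window of each lies over the start of the other.
Col4a2 to Col4a1, chr8:11312805-11312826, plus strand: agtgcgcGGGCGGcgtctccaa
That stretch held a GC box. The CCAAT match of Col4a2 began 32 bases before its start and that of Col4a1 lay 145 bases before its start, while the windows of Col6a2 and Col23a1 held none. RefSeq windows were matched for 34 of the 43 members, with 37 windows in all. CCAAT or its complement stood in 12 of these 37 windows (32.4%), against 33.8% of the 32851 windows of all genes. A TATA box stood in 5 of them (13.5%, against 12.4% of all), and a GC box in 21 (56.8%, against 32.7% of all). A match describes the letters only.

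Most collagen expression in these tissues came from few genes. Divided by exon length, the 10 highest members held 81.2% of the summed collagen level. Over all 20 libraries 26 members had a mean of at least 1 CPM, 9 of them of at least 10 CPM, and 17 lay under 1 CPM. Reads of 25 members were found in every library. On the scale of CPM per kilobase of exon, the order began with Col9a2 (4.79), Col6a1 (3.86), Col4a2 (3.82), Col9a3 (3.53), Col4a1 (3.40), Col1a1 (3.22), Col6a2 (3.17), Col8a2 (2.11), Col11a2 (2.05) and Col23a1 (1.93). It ended with Col4a3 (0.0083), Col28a1 (0.00668) and Col24a1 (0.00417). Of the 42 neighbouring pairs in this order, all 42 overlapped in mean ± SD over the libraries of both tissues. Whether neighbours differ in level was not tested. In CPM the single libraries ranged from 8.57 to 21.1 for Col9a2, from 8.85 to 29.7 for Col6a1, from 4.79 to 11.9 for Col16a1, from 1.24 to 5.70 for the multiplexin Col15a1 and from 0 to 1.06 for Col7a1, the collagen of anchoring fibrils. Exon length was the union of all annotated exons, which lowers the level of genes with long alternative exons.

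**Figure D1:**
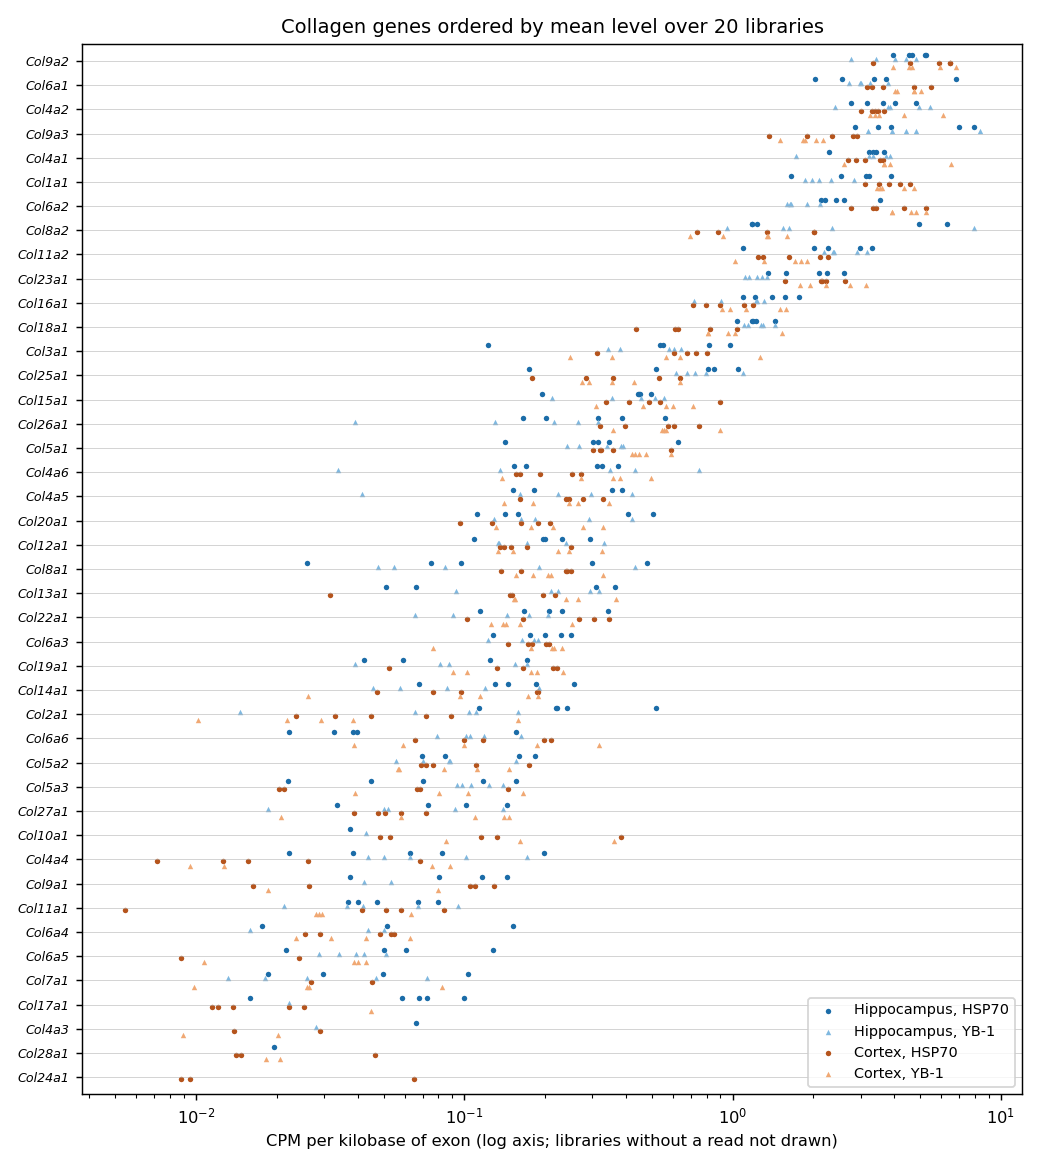
Level of each of the 43 collagen genes in CPM per kilobase of exon (log axis), 1 point per library, coloured by tissue and treatment, with genes ordered by their mean over 20 libraries. The upper genes stand near 1 to 5 CPM per kilobase in all groups, and the lowest have reads in few libraries.

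By structure, fibril-associated collagens held 26.5% of the length-corrected collagen level, the basement membrane network 19.9%, beaded filaments 18.8% and fibrillar collagens 17%. Transmembrane collagens held 6.91%, hexagonal networks 5.92% and multiplexins 3.88%. The share of the hexagonal networks ranged the most in relation to its mean, from 2.11% to 18.3% of a library's collagen. Beaded filaments held a mean of 16.2% in Hippocampus HSP70 and 14.3% in Hippocampus YB-1, against 21.7% in Cortex HSP70 and 23.2% in Cortex YB-1. The ranges of the summed level of all members overlapped between the 4 groups, with means of 246 ± 25.0 CPM in Hippocampus HSP70, 223 ± 25.1 in Hippocampus YB-1, 232 ± 22.3 in Cortex HSP70 and 256 ± 32.7 in Cortex YB-1 (mean ± SD, n = 5).

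Genes whose products assemble into 1 molecule were often far apart in level. Type IX collagen, which decorates fibrils of type II collagen, is built from the products of Col9a1, Col9a2 and Col9a3. Over the 20 libraries Col9a2 and Col9a3 averaged 14.8 and 13.6 CPM, whereas Col9a1 averaged 0.243 CPM and had no read in 7 libraries. Type VI collagen is a filament around cells that needs the products of Col6a1, Col6a2 and Col6a3. Per kilobase Col6a1 and Col6a2 stood at 3.86 and 3.17 CPM and Col6a3 at 0.173. Of the network chains of basement membranes, Col4a1 and Col4a2, which are made by vessels throughout the body, stood at 3.40 and 3.82 CPM per kilobase. The other 4 type IV genes, whose chains are known from specialised membranes such as that of the kidney glomerulus, stood between 0.0083 (Col4a3) and 0.286 (Col4a6). Poly(A) selection can favour the ends of transcripts, so a length-corrected difference between genes of such unlike length is approximate.

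Hippocampus and cortex were then compared over both treatments, 10 libraries against 10. Of the 31 members that passed the filter on low counts, 9 passed edgeR's quasi-likelihood test at an adjusted p under 0.05, 5 higher and 4 lower in the hippocampus. Among all 14616 genes tested 15.9% passed, 8.55% higher and 7.32% lower. At an unadjusted p under 0.05 there were 11 members, against 26.8% of all genes. The median log2 fold change of the 31 was -0.14, and that of all genes was 0.0006. Leaving out 1 library moved the median of the 31 between -0.18 and -0.020, the latter without Hippocampus YB-1 replicate 5. These are sums over all cells of a piece of tissue, so fewer cells of a type and less RNA per cell cannot be told apart.

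Higher in the hippocampus were Col9a3, Col2a1, Col11a2, Col25a1 and Col18a1. Col9a3 (ENSMUSG00000027570) ranged from 11 to 32.1 CPM with a median of 16.1 in the hippocampus and from 5.26 to 11.2 with a median of 7.62 in the cortex. The ranges touched only at the lowest hippocampal and highest cortical libraries, and the log2 fold change was 1.27 ± 0.20 (SE, adjusted p = 4.6e-05). The highest hippocampal values, 32.1, 30.5 and 26.8 CPM, belonged to the 3 libraries rich in choroid plexus markers. Without these, and so without its 3 highest values, the fold change was 0.85 (adjusted p = 0.000488). An opposite-strand gene, Tcfl5, shares 234 exon bases with Col9a3 and had 182 reads in all libraries together, against 2670 for Col9a3. Its partner chain Col9a2 had a log2 fold change of -0.29 ± 0.14 and did not pass (adjusted p = 0.181).

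Col2a1 (ENSMUSG00000022483), the chain of the main cartilage collagen, was measured near its limit, with 1 to 32 reads in a library. The hippocampal libraries had a median of 1.26 CPM (0.135 to 4.80) and the cortical ones of 0.33 CPM (0.0942 to 1.47). The ranges overlapped, and the log2 fold change was 1.64 ± 0.44 (adjusted p = 0.00959). With HSP70 the hippocampal libraries were at 1.05 to 4.80 CPM and the cortical ones at 0.217 to 0.826. With YB-1 they overlapped, at 0.135 to 1.46 and 0.0942 to 1.47 CPM. Col11a2 (ENSMUSG00000024330), whose chain joins fibrils of type II collagen, had medians of 16.3 CPM in the hippocampus (7.50 to 22.7) and 11.4 in the cortex (7.04 to 15.6). Its log2 fold change was 0.60 ± 0.17 (adjusted p = 0.016), with 1 hippocampal library, HSP70 replicate 5, near the bottom of the cortical range.

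Col25a1 (ENSMUSG00000058897) encodes a neuronal transmembrane collagen whose shed form was first found in amyloid plaques of Alzheimer's disease. In the hippocampus its level ran from 2.25 to 14.2 CPM with a median of 9.84, and in the cortex from 2.32 to 8.27 with a median of 4.61. Again HSP70 replicate 5 was the lowest hippocampal library, below every cortical one, while 7 of the 10 hippocampal libraries lay above the highest cortical one. The log2 fold change was 0.88 ± 0.26 (adjusted p = 0.0177), and 1.03 without the 3 libraries rich in choroid plexus markers. Col18a1 (ENSMUSG00000001435) encodes a basement membrane collagen whose end fragment is endostatin, an inhibitor of vessel growth. It was even across the hippocampus, at 7.30 to 10.1 CPM with a median of 8.45, and more spread in the cortex, at 3.06 to 10.7 with a median of 5.74. Cortical replicate 5 of YB-1, at 10.7 CPM, was the only cortical library above 7.32. The log2 fold change of 0.53 ± 0.16 passed (adjusted p = 0.0224), but without the 3 libraries it was 0.45 and did not (adjusted p = 0.11).

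Lower in the hippocampus were Col6a2, Col1a1, Col26a1 and Col23a1. Col6a2 (ENSMUSG00000020241), a chain of the beaded filaments, had the smallest p of all members. Its median was 17.7 CPM in the hippocampus (13.3 to 29.5) and 34.5 in the cortex (22.9 to 43.9), with a log2 fold change of -0.95 ± 0.12 (adjusted p = 2.95e-06). Only Hippocampus HSP70 replicate 3, at 29.5 CPM, reached into the cortical range. Its partner chain Col6a1 had a log2 fold change of -0.33 ± 0.16 and did not pass (adjusted p = 0.199). Col1a1 (ENSMUSG00000001506), a chain of the fibrils of meninges and vessel walls, had medians of 16 CPM in the hippocampus (10.8 to 25.5) and 24.4 in the cortex (20.5 to 31.2). Its log2 fold change was -0.62 ± 0.13 (adjusted p = 0.00133), and 7 of 10 hippocampal libraries lay below the lowest cortical one. Col3a1, the chain of the thinner fibrils in the same tissues, did not pass at -0.16 ± 0.29 (adjusted p = 0.792).

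Col26a1 (ENSMUSG00000004415), a little-studied secreted collagen, was at a median of 1.97 CPM in the hippocampus (0.32 to 4.60) and 4.58 in the cortex (2.61 to 7.33), a log2 fold change of -1.13 ± 0.28 (adjusted p = 0.00568). Col23a1 (ENSMUSG00000063564), a transmembrane collagen that can be shed from the cell surface, was at 7.76 CPM in the hippocampus (6.35 to 14.9) and 12.6 in the cortex (9.0 to 18). With HSP70 the ranges overlapped, at 7.80 to 14.9 CPM in the hippocampus and 9.0 to 15.1 in the cortex. With YB-1 they did not, at 6.35 to 7.72 and 10.3 to 18 CPM. The log2 fold change of Col23a1 over both treatments was -0.54 ± 0.14 (adjusted p = 0.0087), and the tissues were not tested within a treatment. So the transmembrane members Col23a1 and Col25a1 both passed, in opposite directions.

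**Figure D2:**
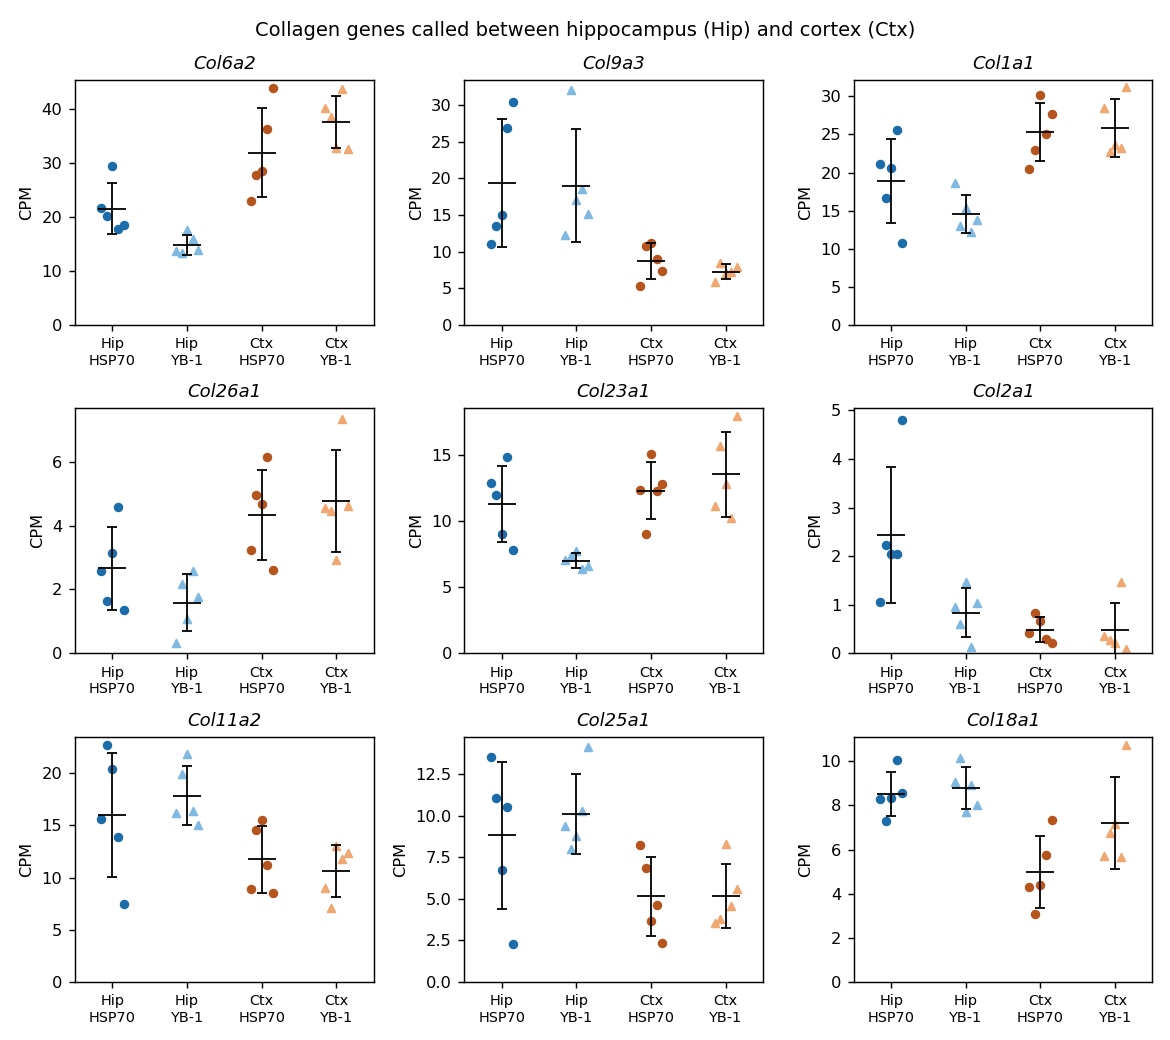
Level in CPM of the 9 collagen genes that passed between hippocampus and cortex, with a panel for each gene. Points are the 5 libraries of each of the 4 groups, with their mean ± SD. Col9a3 stands higher in the hippocampal groups and Col6a2 in the cortical ones.

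Some cell type markers differed between the tissues beside these genes. All 11 choroid plexus markers passed as higher in the hippocampus, with a median log2 fold change of 3.89, and all 7 markers of oligodendrocytes passed as well, summing to 3764 to 7043 CPM there and 1399 to 2540 in the cortex. Of 15 markers of meningeal fibroblasts 3 passed as lower in the hippocampus and 1, Dcn, as higher, at a log2 fold change of 1.18. Their sums were 702 to 2107 CPM in the hippocampus and 1431 to 2691 in the cortex. Of these, the prostaglandin D synthase gene Ptgds alone took 502 to 1837 and 1232 to 2422 CPM. Of 10 endothelial markers none passed and 9 had negative fold changes, with sums of 198 to 274 and 244 to 349 CPM. Each of the 15 meningeal and 10 endothelial markers had reads in every library. Their part in the tissue differences of collagen genes was not tested. Leaving out the 3 libraries above cannot test it, because the remaining hippocampal libraries held up to 746 CPM of choroid plexus markers, against at most 166 in the cortex. Without these 3 libraries 9 members still passed, of which 8 were shared with the 9 above. Col18a1 was lost, and Col8a1 was gained as lower in the hippocampus.

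Col8a2 (ENSMUSG00000056174), a chain of the hexagonal networks known from the cornea, was uneven across the hippocampal libraries. The Hippocampus HSP70 libraries 1 to 5 were at 5.53, 5.30, 5.29, 22.2 and 28.4 CPM, and the Hippocampus YB-1 libraries at 4.27, 35.5, 10.5, 7.30 and 6.90. All cortical libraries lay between 3.11 and 9.06 CPM. The values of 22.2, 28.4 and 35.5 CPM stood in the 3 libraries with the highest choroid plexus sums. The next highest sum, 746 CPM in Hippocampus YB-1 replicate 4, stood beside a Col8a2 of 7.30 CPM. The tissue difference of 1.18 ± 0.41 did not pass (adjusted p = 0.0595). Without the 3 libraries it was 0.11, but these held the 3 highest values, so leaving them out had to lower it. The partner Col8a1 followed Col8a2 across the 10 hippocampal libraries, with its highest values of 3.75, 3.38 and 2.33 CPM in the same 3.

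**Figure D3:**
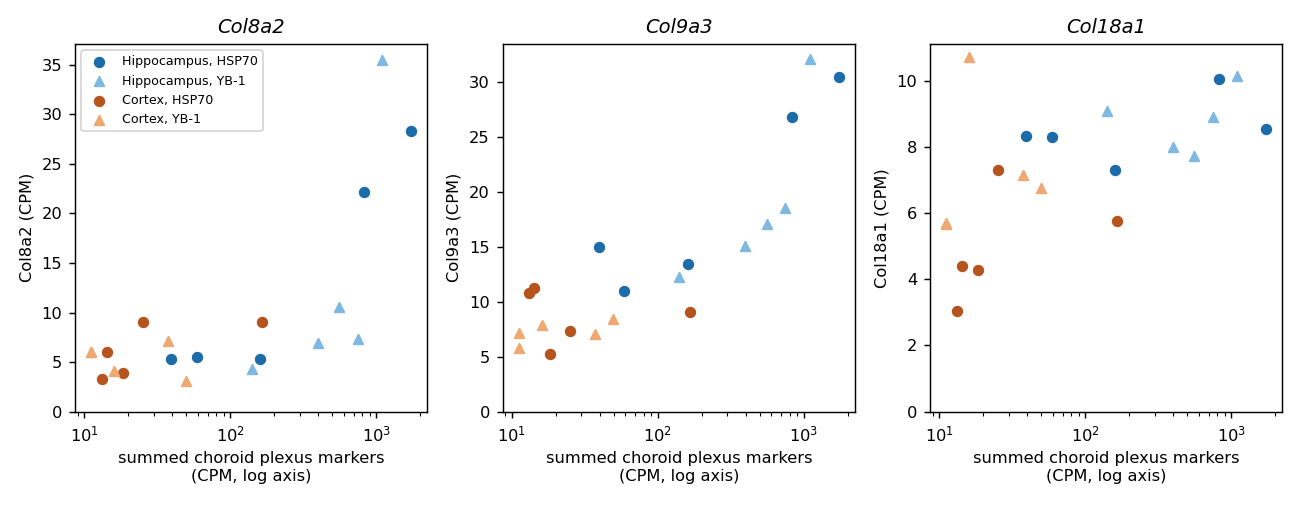
Levels of collagen genes (CPM) against the summed level of 11 choroid plexus markers (CPM, log axis), 1 point per library. Col8a2 reaches 22.2 to 35.5 CPM in the 3 hippocampal libraries with the highest sums and stays under 11 CPM in the others.

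Treatments were compared within each tissue, as YB-1 against HSP70. In the hippocampus no collagen gene passed edgeR's quasi-likelihood test: 0 of 23 tested, against 0% of all 13723 genes. At an unadjusted p under 0.05 there were 3 members, all lower with YB-1, where 2.4% of all genes reached that level and 0.984% did so as lower. Of the 23 members 16 had a negative log2 fold change, against 50.7% of all genes, and the median was -0.10. Both moved when single libraries were left out, which also changed the members that passed the filter. Without YB-1 replicate 5, 27 members were tested, 14 negative and 13 positive, with a median of -0.0048. The median of the 25 tested without HSP70 replicate 5 was -0.28. The same 23 members were not compared. The 4 members with the smallest p were Col23a1, Col6a2, Col2a1 and Col1a1.

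The Hippocampus HSP70 libraries 1 to 5 held Col23a1 at 12.9, 12, 9.05, 14.9 and 7.80 CPM, and the YB-1 libraries at 7.05, 7.36, 7.72, 6.35 and 6.62. Every YB-1 library was below every HSP70 library, by a margin of 7.80 to 7.72 at the closest. The log2 fold change was -0.69 ± 0.21, and edgeR's quasi-likelihood test gave an unadjusted p of 0.00513 and an adjusted p of 1. Col6a2 was at 21.6, 20.1, 29.5, 17.8 and 18.5 CPM with HSP70 and at 13.7, 13.3, 17.6, 15.8 and 13.8 with YB-1. These groups did not overlap either, with 17.8 and 17.6 CPM the nearest values. Its log2 fold change was -0.54 ± 0.17 (unadjusted p = 0.00763 and adjusted p = 1 by the same test).

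Col2a1 was at 1.05, 2.24, 2.03, 2.04 and 4.80 CPM with HSP70 and at 0.961, 0.604, 1.46, 0.135 and 1.02 with YB-1, which overlapped through the lowest HSP70 and the highest YB-1 libraries. Its log2 fold change was -1.48 ± 0.52 (unadjusted p = 0.012, adjusted p = 1). Without the 3 libraries rich in choroid plexus markers it was -0.95, while Col23a1 and Col6a2 were at -0.70 and -0.64. The median of the collagen genes, 25 of which could then be tested, was -0.32 without them. Col1a1 was at 18.9 ± 5.54 CPM with HSP70 and 14.6 ± 2.54 with YB-1 (mean ± SD, n = 5), a log2 fold change of -0.38 ± 0.22, which was -0.25 without HSP70 replicate 4.

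Markers of meningeal fibroblasts lay on the same side in this comparison. All 14 tested had negative fold changes with a median of -0.34, none passed, and their sums were 1071 to 2107 CPM in the HSP70 libraries and 702 to 1352 in the YB-1 libraries. Most of each sum was Ptgds, a prostaglandin D synthase gene, at 816 to 1837 and 502 to 1123 CPM. All 10 endothelial markers had positive fold changes, with a median of 0.18 and none passed, and all 7 oligodendrocyte markers had negative ones, with a median of -0.21. Their part in the collagen values was not tested.

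In the cortex 0 of 26 members passed, against 0% of all 14114 genes. No member reached an unadjusted p under 0.05, against 5.48% of all genes. In DESeq2, with a replicate block, without the filter or with all 4 groups in 1 fit 1 member did, and without single libraries 0 to 2 did. Of the 26, 17 had a positive log2 fold change with YB-1, against 50.9% of all genes, and the median was 0.07. Without Cortex YB-1 replicate 5, 30 members passed the filter, 15 positive and 15 negative, with a median of 0.008. The median of the 30 tested without YB-1 replicate 2 was 0.15. The same 26 members were not compared. The members with the smallest p were Col18a1, Col4a6, Col4a1 and Col4a2.

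Cortical Col18a1 was at 4.29, 3.06, 4.41, 5.77 and 7.32 CPM with HSP70 and at 5.71, 6.77, 7.16, 5.68 and 10.7 with YB-1. The groups overlapped, and the log2 fold change was 0.54 ± 0.26 (unadjusted p = 0.0548 and adjusted p = 0.858 by edgeR's quasi-likelihood test). Col4a6, a minor type IV chain, was at 1.65 ± 0.42 and 2.62 ± 1.06 CPM (mean ± SD, n = 5), a log2 fold change of 0.69 ± 0.35. Col4a1 (ENSMUSG00000031502) was at 23.3, 20.1, 21.6, 26.3 and 27.0 CPM with HSP70 and at 19.4, 27.4, 27.4, 28.8 and 48.8 with YB-1. Col4a2 (ENSMUSG00000031503) was at 19.9, 22.5, 24.3, 23.0 and 21.8 CPM with HSP70 and at 22.5, 28.8, 23.3, 21.4 and 40.2 with YB-1. The highest value of both genes, and of Col18a1 and Col4a6, stood in Cortex YB-1 replicate 5. Their log2 fold changes were 0.36 ± 0.20 and 0.29 ± 0.18, and without that library 0.12 and 0.11. For Col18a1 the value without it was 0.35.

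Endothelial markers overlapped between the cortical treatments, at 244 to 349 CPM with HSP70 and 260 to 314 with YB-1, with 5 of 10 positive fold changes. Markers of GABAergic neurons did not overlap, at 714 to 895 and 521 to 621 CPM, with 7 of 7 negative fold changes of which none passed. Cortex YB-1 replicate 4 held the highest sum of striatal neuron markers, 651 CPM, against 168 to 279 CPM across the other cortical libraries. It also held the highest cortical Col2a1 and Col26a1, at 1.47 and 7.33 CPM. The part of these markers in the collagen values was not tested.

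**Figure D4:**
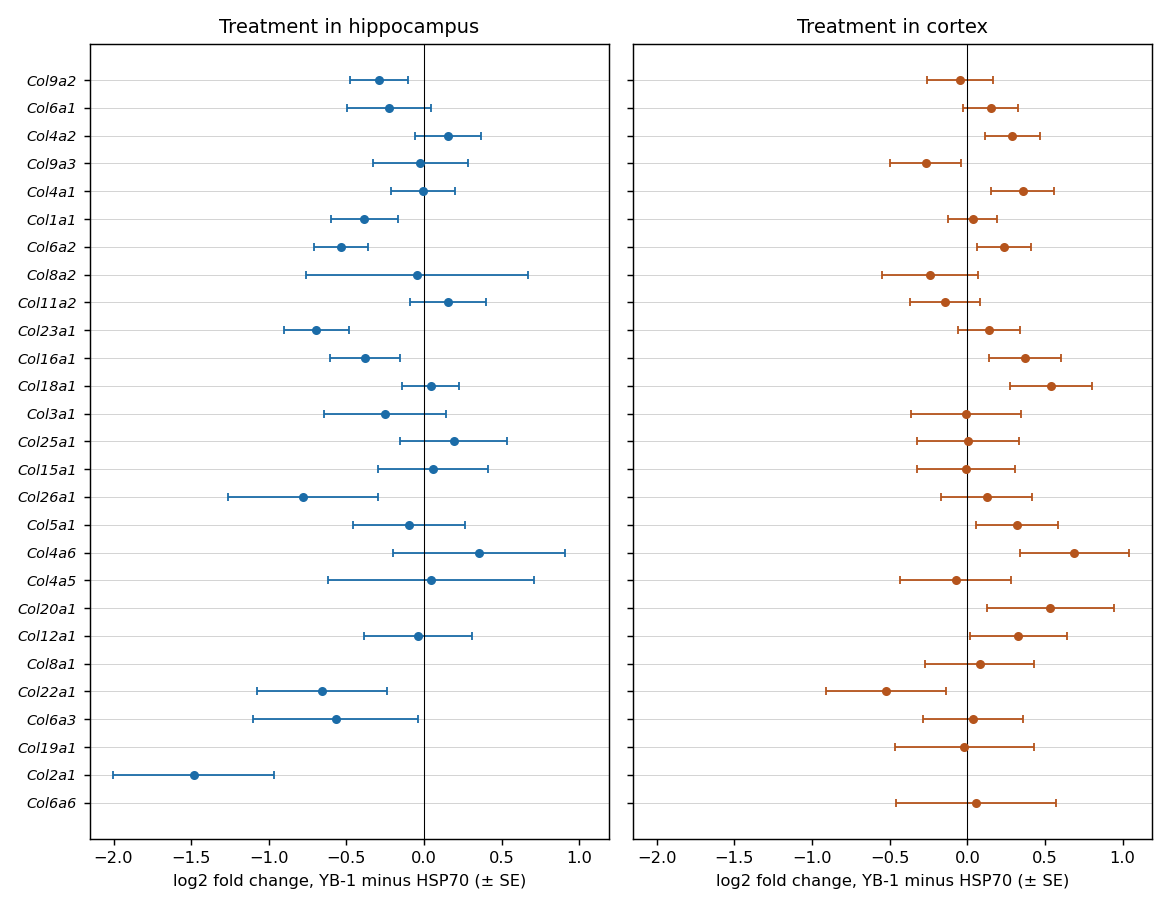
Log2 fold change of YB-1 against HSP70 with its standard error for the collagen genes tested in the hippocampus and in the cortex. None passed in either tissue; hippocampal values lie mostly below 0, down to -1.48 for Col2a1, and 17 of 26 cortical values lie above 0.

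The test of whether the treatment difference itself differed between the tissues found 0 of 31 members, against 0% of all 14616 genes. At an unadjusted p under 0.05 there were 3 members, all with a lower YB-1 difference in the hippocampus than in the cortex, where 1.55% of all genes reached that level and 0.848% did so as lower. Of the 31 members 23 were negative, against 51.4% of all genes, and the median was -0.34. Leaving out 1 library moved the median between -0.46 and -0.20, the latter without Hippocampus HSP70 replicate 4. The 3 were Col6a2 at -0.77 ± 0.25, Col23a1 at -0.84 ± 0.28 and Col16a1, a fibril-associated collagen, at -0.76 ± 0.31 on the log2 scale. Col26a1 followed at -0.92 ± 0.56. In edgeR's quasi-likelihood test each had an adjusted p of 1. Col16a1 averaged 9.49 ± 1.82 CPM in Hippocampus HSP70, 7.26 ± 1.69 in Hippocampus YB-1, 6.34 ± 1.37 in Cortex HSP70 and 8.22 ± 2.06 in Cortex YB-1 (mean ± SD, n = 5).

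Pairs of members were followed across the 10 libraries of each tissue, as deviations of log2 CPM from the group means, in a family of 16 relations tested by exact permutation within groups. In the hippocampus Col4a1 and Col4a2, the head-to-head pair shown above, had a Pearson r of 0.86 (exact permutation p = 0.00444, adjusted 0.0372) and a Spearman rho of 0.66 (adjusted p = 0.144). Without the 2 libraries farthest from the median of Col4a1, HSP70 replicate 5 and YB-1 replicate 4, r was 0.52. In these 2 libraries the noncoding neuronal RNA Bc1 took 20.3% and 20.8% of the reads, against 3.92% to 15.4% in the other hippocampal libraries, and they had the fewest genes with a read (16889 and 18379) and the lowest collagen shares of the hippocampal libraries. The part of this in the relation was not tested. In the cortex r was 0.73 (adjusted exact permutation p = 0.181) and -0.098 without Cortex YB-1 replicates 5 and 1, so the cortical relation rests on those libraries. Col8a1 and Col8a2 had an r of 0.89 in the hippocampus (exact permutation p = 0.00465, adjusted 0.0372) and a rho of 0.84 (adjusted p = 0.0856), with 0.74 without the 2 farthest libraries, which are among the 3 rich in choroid plexus markers. In the cortex their r was 0.55 (adjusted exact permutation p = 0.181).

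The fibril chains Col1a1 and Col3a1 had an r of 0.84 across hippocampal and 0.65 across cortical libraries (adjusted exact permutation p = 0.0617 and 0.106). Without the 2 libraries farthest in Col1a1 these were 0.34 and 0.42. Col6a1 and Col6a2 had 0.24 in the hippocampus and 0.78 in the cortex (adjusted p = 0.606 and 0.0889, exact permutation). These moved to 0.43 and 0.66 without the 2 libraries farthest in Col6a1. In the hippocampus HSP70 replicate 2 held the highest Col6a1 of all libraries, 29.7 CPM, with Col6a2 at 20.1 CPM. Col4a1 against the mean log2 CPM of the endothelial markers gave 0.88 and 0.66. Col3a1 against that of the meningeal fibroblast markers gave 0.60 and 0.75 (adjusted exact permutation p between 0.0573 and 0.106 for both relations). The hippocampal value of Col4a1 with endothelial markers was 0.12 without HSP70 replicate 5 and YB-1 replicate 4, so it rests on those libraries, and the cortical one was 0.53 without the 2 farthest. For Col3a1 with the meningeal markers the values without the 2 farthest libraries were 0.41 and 0.65. Col9a1 and Col9a3, partners in type IX collagen, had negative values, -0.31 in hippocampal and -0.50 in cortical libraries (adjusted exact permutation p = 0.47 and 0.237), with Col9a1 near its limit of detection. Col18a1 with the mean log2 CPM of the choroid plexus markers had 0.42 and 0.34 (adjusted exact permutation p = 0.331 and 0.448). These moved to 0.022 and 0.81 without the 2 libraries farthest in Col18a1. All points share the library's scaling, and on plain library totals several of these values were larger.

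**Figure D5:**
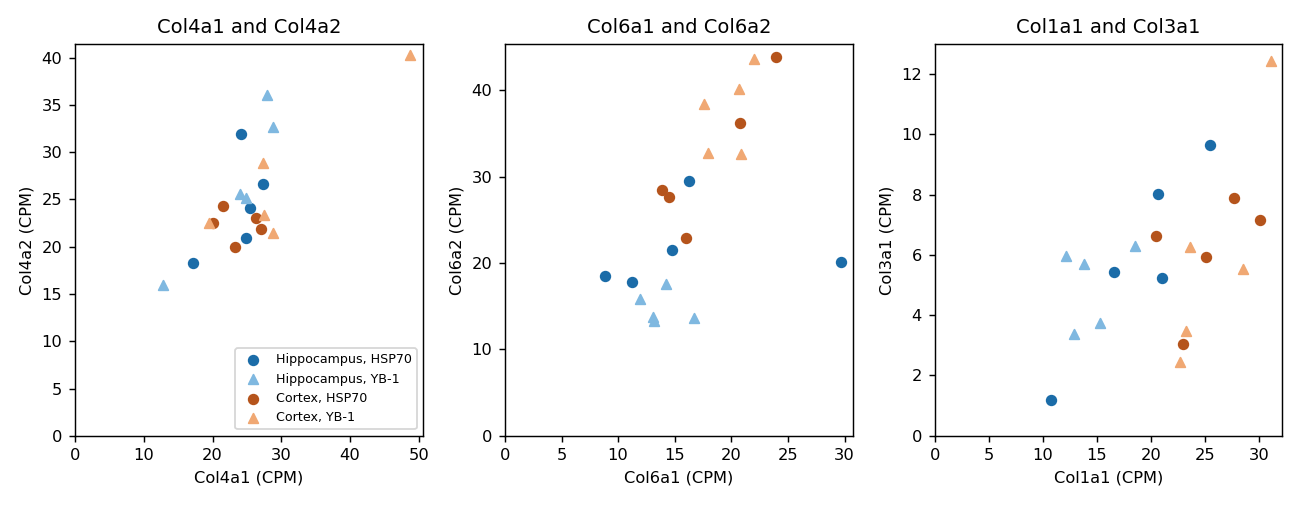
Levels in CPM of 3 pairs of collagen genes, 1 point per library, coloured by tissue and treatment. Col4a1 and Col4a2 are highest together in Cortex YB-1 replicate 5 (48.8 and 40.2 CPM), and the cortical libraries lie above most hippocampal ones in Col6a2.

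The genes that make, process, bind and break down collagen were taken from 6 lists drawn up by function. Between the tissues 4 of 18 tested genes of collagen biosynthesis passed, all higher in the hippocampus, where 15.9% of all genes passed and 8.55% did so as higher; the lists below stand against the same shares. They include Ppib, a prolyl isomerase of collagen folding, with a log2 fold change of 0.58 ± 0.12, and Plod1, a lysyl hydroxylase, with 0.57 ± 0.12. Of 8 tested genes of procollagen processing and crosslinking 2 passed, also higher: Pcolce2, an enhancer of procollagen cleavage, at 1.35 ± 0.25, and Loxl1, a lysyl oxidase, at 0.77 ± 0.17. Without the 3 libraries rich in choroid plexus markers these 4 named genes were at 0.48, 0.43, 1.0 and 0.59.

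Of 9 collagen receptors Ddr1, a receptor kinase for collagen, was higher in the hippocampus at 0.67 ± 0.10, and Mrc2, which takes up collagen fragments, was lower at -0.51 ± 0.17. Mrc2 lost its call without the 3 libraries and in 10 of the 20 fits that left out 1 library. None of 11 genes of collagen breakdown and its inhibitors passed, with Mmp15, a membrane-bound metalloproteinase, at 0.41 ± 0.15 and Ctsk, the protease cathepsin K, at -0.62 ± 0.25. With the replicate number shared by the tissues as a block both passed (adjusted p = 0.00934 and 0.0292 in edgeR). Leaving out the 3 libraries rich in choroid plexus markers, in a fit without the block, gave 0.19 for Mmp15 and -0.60 for Ctsk, and neither passed. Among 16 basement membrane partners 2 were higher and 2 lower, with the laminin chain Lamb1 among the higher at 1.17 ± 0.13. Among 13 partners of fibrils 2 were higher and 2 lower, with the proteoglycan Dcn at 1.18 ± 0.14 and the tenascin Tnxb at 1.31 ± 0.21.

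Between the treatments no gene of these 6 lists passed in either tissue. In the hippocampus the smallest p of each list belonged to P4ha3, a prolyl hydroxylase chain, at 0.68 ± 0.38, Loxl1 at -0.29 ± 0.22, Mrc2 at -0.59 ± 0.22, the metalloproteinase Mmp16 at 0.50 ± 0.35, the laminin chain Lama1 at -0.58 and the fibulin Fbln1 at -0.52 (log2 fold change of YB-1 against HSP70). In the cortex they were P4ha3 at 0.61 ± 0.31, the lysyl oxidase Loxl3 at 0.59 ± 0.21, the integrin chain Itga11 at 0.69 ± 0.35, Mmp16 at -0.49, the laminin chain Lamc1 at 0.37 and fibronectin, Fn1, at 0.55. Leaving out 1 library moved several of these by over 1.5 times: hippocampal P4ha3 was 0.44 without YB-1 replicate 1, and Loxl1 and Mmp16 were -0.097 and 0.29 without HSP70 replicate 5. In the cortex Itga11 and Mmp16 were 0.45 and -0.29 without YB-1 replicate 4, and Lamc1 was 0.23 without YB-1 replicate 5.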

How the data were processed

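The authors deposited 1 table of raw read counts by Ensembl gene for each of 20 libraries. The submitters' processing notes name Trimmomatic, STAR, featureCounts and GRCm39; the sources used here give no versions, annotation release or strand setting, so reads of overlapping genes on opposite strands cannot be told apart. Summary entries that name no gene (no feature 2.45% to 4.58%, ambiguous 4.12% to 4.58% of a library) were left out. Symbols and exon lengths came from GENCODE M21, an annotation of the earlier build, matched by identifier (99.4% of identifiers), and promoter windows from RefSeq for GRCm38.p6.

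The test was edgeR 4.0.16 under R 4.3.3 (TMM scaling, filterByExpr, robust quasi-likelihood fit, two-sided, Benjamini-Hochberg adjustment over all genes tested, threshold 0.05). Treatments were fitted within a tissue, and the tissues and the interaction over all 4 groups. CPM are TMM-scaled, and log2 CPM used a prior count of 2. Alternatives were DESeq2 1.42.0, RLE scaling, no filter, counts thinned to the smallest library, a replicate block, all 4 groups in 1 fit, and leaving out each library in turn. Leaving out the 3 libraries with the highest choroid plexus sums was chosen after seeing the data. The fits were tested on simulated data. No 2 libraries of a group agreed within sampling noise (chi-square per degree of freedom at least 10.9).

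The members and gene lists were chosen with earlier results of these data known. Named are the 2 members with the highest mean CPM of each structural class, and Col25a1. Members past the threshold (otherwise the 4 with the smallest p) in each comparison are also named. From each pathway list the genes with the smallest p are named, 2 between tissues and 1 in each treatment comparison. A few low members are named with their levels beside chains of the same molecule, and Col10a1 where a call turned on it. These low members and Col10a1 were chosen after their values were seen. 1 gene that fits the name pattern and 1 pathway gene are not reported here.

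Same-numbered hippocampal and cortical libraries deviated together. Their correlations over 14616 genes were 0.198 to 0.624 with HSP70 and 0.207 to 0.394 with YB-1, all 10 above 0.1. The cortical library most like each hippocampal one bore the same number for 5 of 5 with HSP70 and 4 of 5 with YB-1. Hippocampal replicates 1 of HSP70 and YB-1 also correlated, at 0.496. Whether a shared number stands for 1 animal was not tested. Among the genes named, the replicate number as a block across tissues changed only the calls of Mmp15 and Ctsk. Intervals are not given for CPM, and standard errors are those of the fitted log2 fold changes.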

Additional observations from a re-analysis of the deposited data

Results flagged for a closer look

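In 19 named members, 76 groups of 5 libraries were searched for a highest or lowest value far from the nearest other one (Dixon's 95% limit of 0.71). It was passed in 3 of them (3.95%), and chance alone flags about 1 in 20. Col15a1, a basement membrane collagen related to Col18a1, was at 1.24 CPM in Hippocampus HSP70 replicate 4, where the nearest library of the group was at 2.83. Col2a1 was at 1.47 CPM in Cortex YB-1 replicate 4, from 8 reads, where the nearest was at 0.357. Col8a2 was at 35.5 CPM in Hippocampus YB-1 replicate 2, where the nearest was at 10.5.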

How the results depend on the processing

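Between the tissues 9 members passed under RLE scaling, no filter and a block of the replicate number across tissues, 10 with DESeq2 (Col8a2 gained, adjusted p = 0.0305), 8 of 25 tested with thinned counts (Col2a1 could not be tested) and 9 to 11 without each library in turn. Without the filter Col10a1 was gained, as lower in the hippocampus, and Col18a1 was lost (adjusted p = 0.0662 for Col18a1). Genes called between tissues numbered 2080 to 2437 without each library, 2320 in the fit reported. No alternative called a collagen gene between treatments. Over all genes in the cortex DESeq2 called 4, the fit without the filter 9, and the fits without 1 library 0 to 1, the 1 without Cortex HSP70 replicate 3. The replicate block within a tissue, whose numbers did not pair the treatments (correlations of same-numbered libraries hippocampal -0.283 to 0.496, cortical -0.135 to 0.167), called 0 members and 0 genes in both; the block by number across tissues kept the 9 tissue calls and called 2888 genes. In log2 CPM on plain totals r was 0.866 (hippocampus) and 0.865 (cortex) for Col1a1 with Col3a1. It was 0.810 and 0.864 for Col3a1 with meningeal markers and 0.938 and 0.734 for Col4a1 with endothelial markers. All of these passed the adjusted threshold in Pearson r. In Spearman rho cortical Col1a1 with Col3a1 and hippocampal Col3a1 with meningeal markers did not (adjusted exact permutation p = 0.114 and 0.078). For Col18a1 with choroid plexus markers in the hippocampus r was -0.245 instead of 0.42. The cause of these changes was not tested. Low counts limit Col2a1, Col26a1 and the 17 members under 1 CPM.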
